A study of Mus musculus with 3 samples.

Results

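The enzymes described here make and conjugate bile acids. They are 10 genes chosen by their place in the pathway, Cyp7a1, Cyp8b1, Cyp27a1, Cyp7b1, Cyp39a1, Hsd3b7, Akr1d1, Amacr, Slc27a5 and Baat, of 20542 genes named on the array. All 10 were found, through the RefSeq accession of their probes, with 11 probes between them, since Slc27a5 has 2. RNA was measured on single-colour Agilent mouse arrays, 1 array for each of 3 groups of tissue from female mice. The first group was spleen treated with SiO2 (silica) and with an addition named 3TF-3C, a term left unexplained in the labels, and is called the SiO2-3TF-3C spleen below. The second was normal liver, the positive control. The third was spleen treated with SiO2 alone, here the SiO2 spleen, which the series design names as the control of both others. Both spleen groups therefore share the SiO2 treatment, and both were collected on day 82. Per the design, 5 samples went into the pool of each group, which may or may not hold for the liver, and the labels give neither strain, age, nor the time at which liver was taken.

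Bile acids are made from cholesterol in hepatocytes. In the classic pathway Cyp7a1 adds the first hydroxyl group to the sterol ring, and in the alternative pathway Cyp27a1 oxidises the side chain first and Cyp7b1 then hydroxylates the ring. Both routes go on through enzymes that remodel the ring and shorten the side chain, and the products are joined to an amino acid, mostly taurine in mice, before export into bile.

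With 1 array per group no difference could be tested and no replicate spread exists. A gene was described as higher or lower where it differed by at least 2-fold. Levels are log2 intensities after subtraction of the 75th percentile of each array, so a level of 0 lies at that percentile, and the number after ± is the technical error that the scanner software's signal errors give for that difference, which leaves out how animals vary. Between 77.2% and 81.3% of spots were well above background on each array, no spot was saturated, and the 75th percentile lay at an intensity of 515 in the SiO2-3TF-3C spleen, 390 in liver and 569 in the SiO2 spleen. Because a probe's brightness depends on its sequence, levels are set side by side between arrays for the same gene and not between genes. In these bulk samples fewer cells of a type and less RNA per cell cannot be told apart.

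Promoter windows were at hand for 4 of the 10 enzymes, Cyp27a1, Akr1d1, Hsd3b7 and Cyp8b1, in a RefSeq table on GRCm38.p6 that runs from 250 bases before to 50 after the start of each gene. Those of Cyp8b1 and Akr1d1 are shown because both genes were below detection in the SiO2 spleen and measured in the SiO2-3TF-3C spleen and in liver, and because they hold the matches found. The windows lie at chr9:121916256-121916555 on the minus strand for Cyp8b1 and at chr6:37529923-37530222 on the plus strand for Akr1d1, and are written 5′ to 3′ along the gene. Capitals mark the matches to the letters named below them.
Cyp8b1: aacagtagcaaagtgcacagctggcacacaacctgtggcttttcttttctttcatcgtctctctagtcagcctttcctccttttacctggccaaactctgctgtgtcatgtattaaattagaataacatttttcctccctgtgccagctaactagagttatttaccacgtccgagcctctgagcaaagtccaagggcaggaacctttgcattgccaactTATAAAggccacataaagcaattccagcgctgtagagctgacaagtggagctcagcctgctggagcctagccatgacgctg
Akr1d1: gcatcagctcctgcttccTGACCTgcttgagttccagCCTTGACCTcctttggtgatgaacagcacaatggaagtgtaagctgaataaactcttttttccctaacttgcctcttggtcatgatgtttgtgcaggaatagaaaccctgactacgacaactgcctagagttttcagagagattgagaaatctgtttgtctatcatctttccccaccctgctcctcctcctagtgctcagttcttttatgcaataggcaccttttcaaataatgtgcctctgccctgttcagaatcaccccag
The letters reported here, searched on both strands, were TCAAGG as an NR5A2 type site and AGGTCA as a nuclear receptor half-site. The third was TATAAA, the letters of a TATA box. Cyp8b1 held TATAAA, beginning at position -31 from the start. Akr1d1 held TGACCT, the reverse complement of AGGTCA, at -232 and -210, and CCTTGA, the reverse complement of TCAAGG, at -213, which overlaps the TGACCT at -210 by 3 bases. The windows of Cyp27a1 and Hsd3b7 held 0 matches to these letters. Among all 32851 windows of the table, 14.4% held TCAAGG, 16.3% AGGTCA and 13.6% TATAAA, against 1, 1 and 1 of the 4 enzyme windows. These are matches of letters, and the arrays carry no measure of binding.

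In the SiO2-3TF-3C spleen, 9 of the 10 enzymes exceeded the SiO2 spleen by at least 2-fold, among 5.24% of the 17636 genes measured that were so much higher. Their differences ran from 2.23-fold for Cyp7b1 to 203-fold for Slc27a5, and the median of the 10 enzymes was 2.36 on the log2 scale, against -0.15 over all genes. Cyp39a1 alone stayed within 2-fold, and 0 of the 10 were at least 2-fold lower, where 1.39% of all genes were. With normexp background correction, another way of removing local background, 6 of the 10 passed 2-fold, while 3.36% of all genes were higher and 0.228% lower. Cyp8b1, Cyp27a1 and Cyp7b1 then stood at 0.96, 0.95 and 0.94 on the log2 scale, just under 2-fold. This correction, run with an offset of 50, also gave smaller differences for enzymes that were low in the SiO2 spleen, and its values are given beside them.

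**Figure D1:**
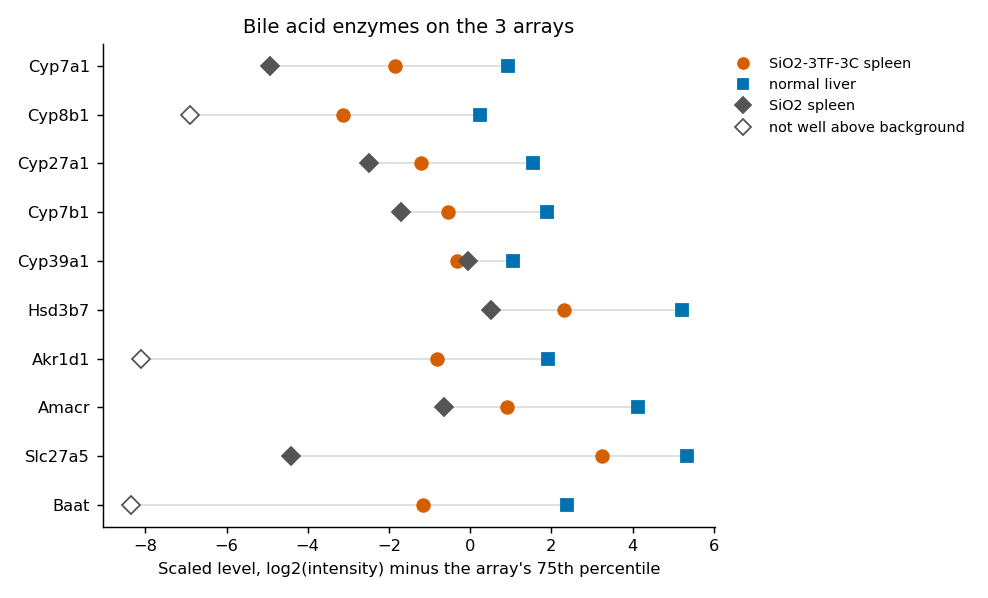
Level of each bile acid enzyme on each array, as log2 intensity minus the array's 75th percentile, 1 row per gene and 1 point per array, with hollow points where the probe was not well above background. For 9 of the 10 genes the SiO2-3TF-3C spleen lies between liver and the SiO2 spleen, and for Cyp39a1 (-0.32 in the SiO2-3TF-3C spleen, 1.06 in liver, -0.05 in the SiO2 spleen) it lies below both.

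Cyp7a1, the rate-limiting enzyme of the classic pathway, had an intensity of 143 in the SiO2-3TF-3C spleen, 737 in liver and 18.7 in the SiO2 spleen. Its levels were -1.84, 0.92 and -4.93 in the same order. The gene was detected in all 3 tissues, with the SiO2-3TF-3C spleen 8.47-fold above the SiO2 spleen (3.08 ± 0.27 log2) and 6.79-fold below liver (-2.76 ± 0.20). With normexp the Cyp7a1 differences were 1.62 and -2.13. Cyp8b1, the hydroxylase of the endoplasmic reticulum that directs synthesis towards cholic acid, had an intensity of 58.7 in the SiO2-3TF-3C spleen, 457 in liver and 4.72 in the SiO2 spleen. The SiO2 spleen value was not well above background, so the SiO2-3TF-3C spleen was at least 7.51-fold higher and liver at least 77.2-fold higher than it. In such a bound the dim array counts as no lower than its dimmest detected probe. Against liver, where both arrays measured it, Cyp8b1 was 10.3-fold lower in the SiO2-3TF-3C spleen (-3.36 ± 0.21), which normexp gave as -2.36. Its difference between liver and the SiO2 spleen was 3.32 log2 with normexp.

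The enzymes of the alternative pathway were present in the SiO2 spleen and differed less between the spleen samples. Cyp27a1, the mitochondrial sterol hydroxylase that opens this pathway and also oxidises the side chain in the classic one, had an intensity of 221 in the SiO2-3TF-3C spleen, 1143 in liver and 101 in the SiO2 spleen. It was 2.41-fold higher in the SiO2-3TF-3C relative to the SiO2 spleen (1.27 ± 0.21 log2) and 16.5-fold higher in liver relative to the SiO2 spleen (4.04 log2, against 3.41 with normexp). The Cyp27a1 probe was spotted 10 times on each array, and its spots ranged from 206 to 238 in the SiO2-3TF-3C spleen, from 1065 to 1249 in liver and from 94.3 to 109 in the SiO2 spleen. No spot of one array overlapped those of another, but spots on an array share 1 labelled RNA and measure only the array's own noise.

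Cyp7b1, which hydroxylates the oxysterols that Cyp27a1 and other hydroxylases make, had an intensity of 353 in the SiO2-3TF-3C spleen, 1447 in liver and 175 in the SiO2 spleen. Its difference between the spleen samples was 2.23-fold (1.16 ± 0.20 log2), the smallest of the 9 enzymes past 2-fold. Cyp39a1, a hydroxylase that acts on an oxysterol formed mainly in brain, had an intensity of 412 in the SiO2-3TF-3C spleen, 813 in liver and 548 in the SiO2 spleen. Between the SiO2-3TF-3C and the SiO2 spleen it differed by -0.27 ± 0.20 on the log2 scale, and 63.3% of all measured genes had a higher difference. In liver it was 2.16-fold higher than in the SiO2 spleen, which became 0.98 on the log2 scale with normexp correction, so of all 10 enzymes it differed least between liver and spleen.

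Both enzymes that remodel the sterol ring were higher in the SiO2-3TF-3C spleen. Hsd3b7, the steroid dehydrogenase that oxidises the ring hydroxyl, had an intensity of 2568 in the SiO2-3TF-3C spleen, 14408 in liver and 813 in the SiO2 spleen. It was 3.49-fold higher in the SiO2-3TF-3C relative to the SiO2 spleen (1.80 ± 0.20 log2). Akr1d1, the reductase that gives the ring its bent form, had an intensity of 295 in the SiO2-3TF-3C spleen, 1477 in liver and 2.07 in the SiO2 spleen. That last value lies near the median negative control spot of the SiO2 spleen array, 1.94, and Akr1d1 was higher by at least 37.7-fold in the SiO2-3TF-3C spleen and by at least 249.6-fold in liver (5.24 and 7.96 log2). These bounds hold for the main background correction alone, since normexp gave Akr1d1 differences of 2.58 and 4.96. Set against liver, Hsd3b7 (-2.89 ± 0.20) and Akr1d1 (-2.73 ± 0.20) differed by a like amount.

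Amacr, the racemase of mitochondria and peroxisomes that prepares the side chain for shortening, had an intensity of 957 in the SiO2-3TF-3C spleen, 6787 in liver and 365 in the SiO2 spleen. It was 2.89-fold higher in the SiO2-3TF-3C relative to the SiO2 spleen (1.53 ± 0.20 log2) and 9.37-fold lower than in liver (-3.23 ± 0.20). Its probe also had repeated spots, of which 8, 10 and 9 were used. They ranged from 904 to 1123 in the SiO2-3TF-3C spleen, from 6296 to 7043 in liver and from 342 to 387 in the SiO2 spleen, again without overlap.

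**Figure D2:**
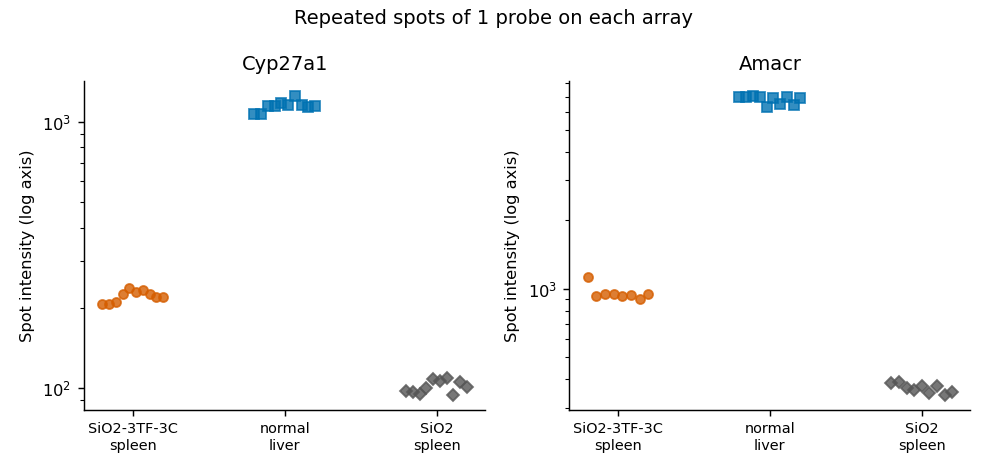
Intensity, on a log axis, of every spot used of the Cyp27a1 and Amacr probes on each array. Spots of an array lie close together, with standard deviations from 0.0610 to 0.0959 on the log2 scale, and the 3 arrays do not overlap for either gene.

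The enzymes of conjugation had large differences between the spleen samples. Slc27a5, the ligase that activates bile acids with coenzyme A, had an intensity of 4890 in the SiO2-3TF-3C spleen, 15879 in liver and 26.6 in the SiO2 spleen with its brighter probe. This was a 203-fold difference between the SiO2-3TF-3C and the SiO2 spleen (7.67 ± 0.23 log2), and 0.335% of all measured genes had a higher one. With normexp it was 6.06. The other Slc27a5 probe read 2234 in the SiO2-3TF-3C spleen, 9226 in liver and 8.65 in the SiO2 spleen, where it was not well above background. That last reading lay above the array's dimmest detected probe, so the 285-fold difference is the ratio as measured (8.16 ± 0.38 log2).

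Baat, which joins the activated bile acid to taurine or glycine, had an intensity of 229 in the SiO2-3TF-3C spleen, 2022 in liver and 1.73 in the SiO2 spleen. It was below detection in the SiO2 spleen, higher by at least 29.3-fold in the SiO2-3TF-3C spleen and by at least 341.7-fold in liver (4.87 and 8.42 log2). Normexp gave Baat lower values here too, 2.41 and 5.74. Slc27a5 was 4.29-fold lower in the SiO2-3TF-3C spleen relative to liver, by -2.10 ± 0.20 log2 with the brighter probe and by -2.45 with the other. Baat was 11.7-fold lower (-3.54 ± 0.20), the lowest of the 10 enzymes relative to liver.

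In normal liver all 10 enzymes exceeded the SiO2 spleen by at least 2-fold, where 15.4% of 17355 genes were higher and 17% lower, with a median of 5.30 log2 against -0.14 over all genes. This comparison shares the SiO2 spleen array with the preceding one. Its values ran from 2.16-fold for Cyp39a1 to 872-fold for Slc27a5 (9.77 log2, against 8.17 with normexp). Set against liver itself, all 10 enzymes were lower by at least 2-fold in the SiO2-3TF-3C spleen, where 15.9% of 17209 genes were lower and 10.7% higher, with a median of -2.77 log2 against -0.03 over all genes. The spread among the enzymes was far narrower here, from -3.54 for Baat to -1.38 for Cyp39a1, than between the spleen samples.

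**Figure D3:**
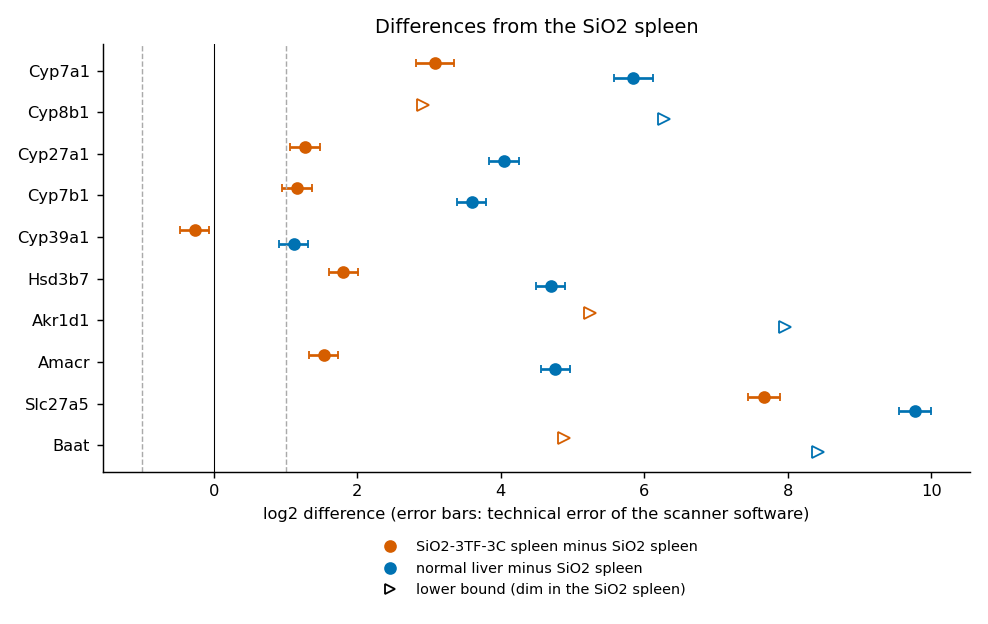
Log2 difference of each enzyme from the SiO2 spleen, for the SiO2-3TF-3C spleen and for normal liver, with technical errors as bars, open triangles for lower bounds and dashed lines at 2-fold. Differences of the SiO2-3TF-3C spleen range from -0.27 for Cyp39a1 to 7.67 for Slc27a5, those of liver from 1.11 to 9.77 for the same genes, and liver lies to the right for every enzyme.

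As a percent of the liver level, the SiO2-3TF-3C spleen reached 38.4% for Cyp39a1, 23.3% for Slc27a5, 18.5% for Cyp7b1 and 15.1% for Akr1d1. Cyp7a1 stood at 14.7%, Cyp27a1 at 14.7%, Hsd3b7 at 13.5%, Amacr at 10.7%, Cyp8b1 at 9.73% and Baat at 8.58%. In that order, neighbours differed beyond their technical error between Cyp39a1 and Slc27a5, between Slc27a5 and Cyp7b1 and between Hsd3b7 and Amacr, and Cyp7b1 and Akr1d1 lay at the limit of it, 0.29 apart. The steps among the 4 enzymes from Akr1d1 to Hsd3b7 were within it, as were those among Amacr, Cyp8b1 and Baat. The place of Slc27a5 rests on its brighter probe, since the other gave 18.3% of liver, next to Cyp7b1. With normexp the order changed as well, with Slc27a5 at -2.11 log2 relative to liver, Cyp7a1 at -2.13, Cyp7b1 at -2.23 and Cyp8b1 at -2.36.

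The same percentage in the SiO2 spleen separated the enzymes more widely. It was 46.2% for Cyp39a1, 8.29% for Cyp7b1, 6.07% for Cyp27a1, 3.87% for Hsd3b7, 3.69% for Amacr and 1.74% for Cyp7a1, and 0.115% for Slc27a5, while Cyp8b1, Akr1d1 and Baat were below detection there. After the SiO2 spleen level was subtracted from both sides on the linear scale, the SiO2-3TF-3C spleen covered 13.2 ± 2.04% of the distance from SiO2 spleen to liver for Cyp7a1, 10.02 ± 1.79% for Hsd3b7 and 11.1 ± 2.49% for Cyp7b1. This share ran from 7.25% for Amacr to 23.2% for Slc27a5 over the 9 enzymes other than Cyp39a1, with a median of 10.02%. Cyp27a1 had a share of 9.14 ± 1.94% and Baat one of 8.52 ± 1.21%. Cyp39a1 had a share of -14.6 ± 12.5%, since its small distance makes the share imprecise.

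Among the 1359 genes whose liver level exceeded the SiO2 spleen by at least 4-fold with bounds included, the median share was 8.45%, with quartiles at 5.68% and 11.7%. The 9 enzymes other than Cyp39a1 are among these genes and had a median of 10.02%, with quartiles at 9.08% and 13.2%. Akr1d1 stood at 15.02 ± 2.14%. The 10 hepatocyte markers had a median of 24.7% and a range of 8.67% to 87.9%. Albumin, Alb, stood at the top, followed by Ahsg (59.6%) and Serpina1a (57.3%). The share of Serpina1a rests on its brighter probe, at -0.79 log2 in the SiO2-3TF-3C spleen relative to liver. Its other probe was lower relative to liver, at -1.90. The lowest were Tat, Apoa1 (8.96%) and Cyp2e1 (12.1%), within the range of the 9 enzymes. The share and this comparison were chosen after the values were seen.

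**Figure D4:**
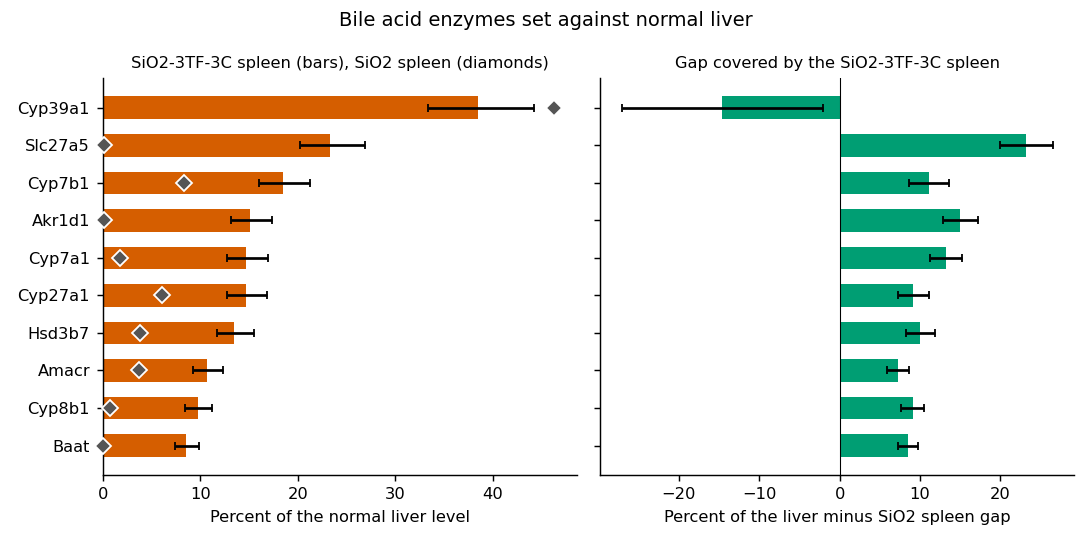
Left, the level of each enzyme as a percent of its liver level in the SiO2-3TF-3C spleen (with technical error) and in the SiO2 spleen (diamonds). Right, the share of the distance from SiO2 spleen to liver that the SiO2-3TF-3C spleen covered, from 7.25% for Amacr to 23.2% for Slc27a5 with Cyp39a1 at -14.6%.

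Of 12 further genes of the pathway, 11 were measured, of which 5 passed 2-fold upwards and 0 downwards in the SiO2-3TF-3C relative to the SiO2 spleen, and the median was 0.95 log2. Over all genes 5.24% were so much higher and 1.39% lower, shares that apply to the list counts between the spleen samples below. Acox2, the peroxisomal oxidase that starts side chain shortening, exceeded the SiO2 spleen by 88.8-fold as measured in the SiO2-3TF-3C spleen and stood at 10.4% of liver. Its SiO2 spleen reading was not well above background. Akr1c6 (7.82 log2, 12.6% of liver) and Akr1c14 (2.68, 10.5%) are reductases of the aldo-keto family to which Akr1d1 belongs. Slc27a2, a ligase related to Slc27a5, differed by 7.12 log2 between the spleen samples and stood at 23.3% of liver. Cyp2c70, the enzyme by which mice make muricholic acids, differed by 6.23 and stood at 17.2%.

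The other 6 of these genes were within 2-fold between the spleen samples. Scp2, the thiolase of the side chain, differed by 0.60 and Abcd3, which carries bile acid intermediates into peroxisomes, by 0.95. Acot8, the peroxisomal thioesterase, differed by -0.27, the epoxide hydrolase Ephx1 by -0.40, and Cyp46a1, which makes the oxysterol that Cyp39a1 uses, by -0.25. Genes of peroxisome assembly, the organelle of the last steps before conjugation, gave 0 of 14 past 2-fold between the spleen samples (median 0.08). That is near the share of all genes, of which 5.24% were higher and 1.39% lower. In liver relative to the SiO2 spleen 9 of 14 were higher (median 1.62), where 15.4% of all genes were.

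Cyp7b1 and Hsd3b7 also serve immune tissue, where with Ch25h they make and remove the oxysterol that attracts B cells through the receptor Gpr183. Ch25h differed by -0.12 log2 between the SiO2-3TF-3C and the SiO2 spleen and by -0.45 between liver and the SiO2 spleen. Gpr183 had an intensity of 516 in the SiO2-3TF-3C spleen, 192 in liver and 828 in the SiO2 spleen, a difference of -0.54 between the spleen samples and of -1.56 between liver and the SiO2 spleen. Of the 4 genes, only Cyp7b1 and Hsd3b7 were higher by at least 2-fold in the SiO2-3TF-3C spleen, and Ch25h and the receptor were not.

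Among 16 regulators of bile acid synthesis, 15 were measured in the spleen comparison, with 6 higher by at least 2-fold in the SiO2-3TF-3C spleen, 0 lower and a median of 0.51. With normexp 4 were higher, where 3.36% of all genes were, and the median was 0.36. With the mean over all probes 7 were higher. The regulator values and bounds below are those of the main background correction. In liver 13 of 16 exceeded the SiO2 spleen by at least 2-fold, where 15.4% of all genes did, and the median was 3.11. Hnf4a, a hepatocyte factor that acts on Cyp7a1 and Cyp8b1, differed by 8.37 between the spleen samples, and Nr1h4, the bile acid receptor FXR, by 4.48 and stood at 8.16%. The xenobiotic receptor Nr1i2 differed by 2.91, and Prox1, a repressor of Cyp7a1, was at least 3.54-fold higher. Klb, the co-receptor through which the gut hormone Fgf15 lowers Cyp7a1, differed by 1.80, while its partner Fgfr4 differed by -0.17.

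Several regulators that were higher in liver were within 2-fold between the spleen samples. Nr0b2 (SHP), the repressor induced by Nr1h4, differed by 0.52 between the SiO2-3TF-3C and the SiO2 spleen and by 3.13 between liver and the SiO2 spleen. Nr5a2 (LRH-1), which acts on Cyp7a1 and Cyp8b1, differed by 0.23 and 3.08 in the same comparisons with its brighter probe. Its other probe was detected in the SiO2-3TF-3C spleen and in liver but not in the SiO2 spleen. As measured, that probe gave 2.19 and 5.71. Its SiO2 spleen level of -7.95 lay below the array's dimmest detected level, -6.04, so these 2 values overstate the bounds. The place of Nr5a2 within 2-fold therefore rests on its brighter probe. Insig2 differed by 0.51 and 3.24, and Ppargc1a by -0.02 and 2.13.

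Of 15 bile salt and sterol transporters, 12 were measured in the spleen comparison, with 6 higher by at least 2-fold in the SiO2-3TF-3C spleen, 0 lower and a median of 1.05. With normexp 5 were higher, where 3.36% of all genes were, and the median was 0.66. The transporter values and bounds below are those of the main background correction. Slco1b2, an uptake carrier of hepatocytes, was at least 194-fold higher, the sterol exporter subunit Abcg5 at least 24.9-fold, the canalicular exporter Abcc2 at least 11.6-fold and the uptake carrier Slc10a2 at least 7.77-fold higher. The phospholipid exporter Abcb4 differed by 1.48 and Slco1a1 by 1.73. For Slc10a1, the main bile salt uptake carrier of hepatocytes, the probes disagreed. Its brighter probe gave -0.09 between the spleen samples and 0.12 between liver and the SiO2 spleen, and its other probe 3.81 and 6.92, so no value is given for the gene, which the counts above take by its brighter probe. Among the 8 transporters well above background on all 3 arrays, 2 were higher, against 4.27% of all such genes, and the median was 0.39.

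**Figure D5:**
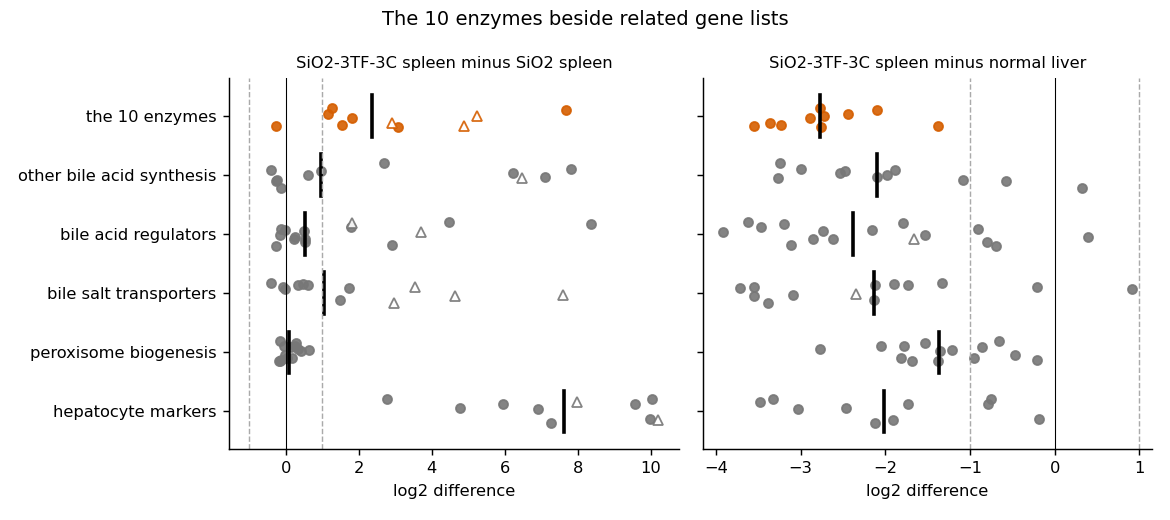
Log2 differences of the single genes, 1 point per gene, in the 10 enzymes and in the related lists, for the SiO2-3TF-3C spleen minus the SiO2 spleen (left) and minus normal liver (right), with bounds as triangles, medians as thick bars and 2-fold as dashed lines. On the left the enzymes have a median of 2.36, above that of the other pathway genes (0.95) and below that of the hepatocyte markers (7.63), and on the right the same lists have medians of -2.77, -2.10 and -2.01. In the authors' deposited table, which lists 6 enzymes and 9 of the other pathway genes, the left medians stand the other way, 2.22 against 2.69.

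Markers of other cell types were read beside these results, as the sum of their linear scaled levels. Such a sum rests mostly on the brightest probes of a list and is compared only between arrays. All 10 hepatocyte markers exceeded the SiO2 spleen by at least 2-fold in the SiO2-3TF-3C spleen (median 7.63), with a summed level of 256.7 in the SiO2-3TF-3C spleen, 613 in liver and 1.58 in the SiO2 spleen. They were well above background for 10, 10 and 8 of 10 genes in the same order. B cell markers were well above background for all 5 genes on every array, with a summed level of 89.9 in the SiO2-3TF-3C spleen, 52.1 in liver and 131 in the SiO2 spleen. The liver sample, against which the percentages above are set, therefore carried markers of B cells.

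Macrophage markers, of a cell type that also expresses Cyp27a1, summed to 52.8 in the SiO2-3TF-3C spleen, 41.1 in liver and 58.1 in the SiO2 spleen. Stromal markers of lymphoid tissue, where Cyp7b1 is known to act, summed to 9.64 in the SiO2-3TF-3C spleen, 4.62 in liver and 12.5 in the SiO2 spleen. Neither list had a gene past 2-fold between the spleen samples, in 0 of 4 macrophage and 0 of 4 stromal markers, nor did the lists of 5 B cell, 5 T cell and 5 fibroblast markers. For lists this short, 0 is near the share of all genes, 5.24% higher and 1.39% lower. Kupffer cell markers were higher for 2 of 4 genes (summed level 15.8 in the SiO2-3TF-3C spleen, 35.7 in liver, 12.5 in the SiO2 spleen), cholangiocyte markers for 2 of 6 and stellate cell markers for 1 of 5. The 2 Kupffer cell genes were Clec4f (84.8-fold, 13.9% of liver) and Vsig4 (17.3-fold, 13.4% of liver). The bright Cd5l differed by 0.24 log2 between the spleen samples and Timd4 by -0.34. Erythroid markers were higher for 4 of 5 genes, with 25.7 in the SiO2-3TF-3C spleen, 6.54 in liver and 14.04 in the SiO2 spleen. The part of these cell types in the enzyme values was not tested.

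The gene whose pattern over the 3 arrays lay nearest to each enzyme was sought for the 7 enzymes well above background on all of them, among 15245 genes. Slc27a5 lay nearest to Serpina1d, at a distance of 0.108 on the log2 scale, and Amacr to Gpd1, at 0.0155. Hsd3b7 lay nearest to Tmem205 (0.0520), Cyp7a1 to H2-T3 (0.0224), Cyp27a1 to Timd2 (0.00935), Cyp7b1 to Gk (0.0757) and Cyp39a1 to Smad6 (0.00934). With 3 arrays such a likeness describes only these values.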

How the data were processed

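Single-colour Agilent arrays were analysed for 1 SiO2-3TF-3C spleen, 1 normal liver and 1 SiO2 spleen sample, grouped by the labels. Each deposited scanner file holds linear intensity after the scanner software's background subtraction. Feature Extraction was version 11.0.1.1 per the file headers and 9.1 per the submitters' processing notes, and the headers name design 026655 and build mm9. The deposited series table holds log2 values of the authors, whose columns correlated with the log2 intensity of their own arrays at r from 0.993 to 0.996. Its column medians were 5.91 on all 3 arrays and its maxima 16.58, its values were not centred on 0, and no source used here names their normalization. RNA was purified with a kit made for blood and depleted of globin messages, per the labels' protocols.

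Control spots and outlier spots (283, 469 and 182 of 43020 for SiO2-3TF-3C spleen, liver and SiO2 spleen) were left out. Spots of a probe were averaged, and log2 intensities were reduced by the 75th percentile of each array. A gene was taken as its brightest probe, and all probes of the enzymes are reported. Probes were named through RefSeq accessions (27228 of 39429 probes, 69.1%), with the GRCm38.p6 table used for names and promoter sequences only, so no gene or probe coordinates are given. Genes well above background on 1 side only have a bound. It equals the measured ratio where the dim reading lay above that array's dimmest detected probe. Genes dim on both sides have none. The number of arrays limits the precision, and no test was made. Alternatives were normexp with offset 50 (limma 3.58.1, R 4.3.3, on median signals because the files used here hold no mean signal), quantile normalization, median or housekeeping scaling, the deposited log2 values, the mean over probes, and 2 filters on dim genes. The calculations (Python 3.11.15, pandas 2.3.3) were tested on simulated data. The 10 enzymes and all lists were chosen with earlier results of these data known. Every enzyme is named, other genes come from the lists, and the nearest gene to each enzyme was taken by Euclidean distance, leaving out clone-like names. A member of the regulator list and a further set of promoter letters are not reported by name here.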

Additional observations from a re-analysis of the deposited data

How the results depend on the processing

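Each difference of an enzyme kept its sign under every alternative run (normexp, quantile normalization, median and housekeeping scaling, the deposited values, the mean over probes and both filters). With normexp the medians were 1.50 for the SiO2-3TF-3C over the SiO2 spleen, 4.12 for liver over the SiO2 spleen and -2.37 for the SiO2-3TF-3C spleen over liver. Among the 7 enzymes well above background on all 3 arrays, the medians were 1.53 and 4.69 for the comparisons with the SiO2 spleen. The authors' deposited values covered 6 enzymes, and all 6 passed 2-fold in both comparisons with liver, 6 above the SiO2 spleen in liver and 6 below liver in the SiO2-3TF-3C spleen, a smaller count because fewer genes are listed. Also with these values, the median of the oxysterol list turned to -0.49 for liver over the SiO2 spleen and 0.33 for the SiO2-3TF-3C spleen over liver, with 3 of its 4 genes listed. For 9 genes of each list, the deposited values gave 3 bile acid regulators higher in place of 6 and a median of 2.69 for the further pathway genes in place of 0.95 (2.22 for the enzymes), between the spleen samples. Normexp changed 4 enzyme calls, those of Cyp8b1, Cyp27a1 and Cyp7b1 given above and that of Cyp39a1 in liver, leaving 6 of 10 past 2-fold between the spleen samples and 9 of 10 in liver, and it lowered the folds of enzymes dim in the SiO2 spleen as given above. Its offset of 50 is added to every signal. It also gave 9.74% of all genes lower in liver relative to the SiO2 spleen, against 17% in the main values, and 5.14% higher in the SiO2-3TF-3C spleen relative to liver, against 10.7%. Housekeeping scaling put the median of all genes at -0.00169 between the spleen samples, against -0.15, with 0.786% of genes lower against 1.39%, and gave 14.9% higher and 13.1% lower in the SiO2-3TF-3C spleen relative to liver, against 10.7% and 15.9%. Without the filter on low signals 2.70% of genes fell at least 2-fold below the SiO2 spleen in the SiO2-3TF-3C spleen. Probes near background in the SiO2 spleen limit Cyp8b1, Akr1d1 and Baat to bounds. No paired analysis was possible because each group has 1 array.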
